A study of Mus musculus with 6 samples.

Results

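Neurod6, its annotated neighbour Gm3279 and 3 related genes of excitatory neurons, Neurod1, Neurod2 and Bhlhe22, were described in primary somatosensory cortex of C57BL/6 mice at postnatal day 14. The 5 genes were chosen by symbol, with their values in this comparison already known, and all 5 were found among the 47794 genes of the deposited table. Control mice (3 libraries) carried the lox(ex3) allele of the β-catenin gene, in which exon 3 is floxed. Overexpression mice (3 libraries) carried the same allele together with Nex-Cre, and nothing in the labels says whether 1 or both copies of either allele were present. The table gave 1 value per gene and group, the authors' mean over 3 libraries of reads after division by a factor for each library, called scaled reads here.

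The NEUROD proteins are basic helix-loop-helix (bHLH) transcription factors. They pair with the widely expressed E proteins, bind the short DNA motif called the E-box and drive neuronal differentiation, while ID proteins bind E proteins without binding DNA. In the cortex Neurod1 is first expressed in newborn excitatory neurons and their late progenitors, and Neurod2 and Neurod6 stay on in maturing excitatory neurons. Nex is an older name of Neurod6. In the Nex-Cre line the Cre recombinase is expressed from the Neurod6 locus, so the locus itself differs between the groups compared here. Removal of exon 3 takes away the phosphorylation sites that mark β-catenin for degradation.

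Neurod6 and Gm3279 lie next to each other on chromosome 6 and are read in opposite directions. In RefSeq their transcript starts are 3308 bases apart, and in GENCODE M21 no annotated gene lies between them. The 300 bases around each start are printed because the genes of this locus had the smallest p-values in the table. Each runs from 250 bases before the start to 50 bases after it, in RefSeq on GRCm38.p6, and capitals mark E-boxes (CANNTG). The build behind the deposited counts is not given in the sources used here.
Neurod6, minus strand, chr6:55681214-55681513: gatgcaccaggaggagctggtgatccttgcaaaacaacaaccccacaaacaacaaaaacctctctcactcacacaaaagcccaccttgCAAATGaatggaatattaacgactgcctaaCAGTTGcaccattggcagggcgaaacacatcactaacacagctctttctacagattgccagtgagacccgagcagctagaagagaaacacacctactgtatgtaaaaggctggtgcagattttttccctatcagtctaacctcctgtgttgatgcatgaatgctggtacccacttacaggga
Gm3279, plus strand, chr6:55684321-55684620: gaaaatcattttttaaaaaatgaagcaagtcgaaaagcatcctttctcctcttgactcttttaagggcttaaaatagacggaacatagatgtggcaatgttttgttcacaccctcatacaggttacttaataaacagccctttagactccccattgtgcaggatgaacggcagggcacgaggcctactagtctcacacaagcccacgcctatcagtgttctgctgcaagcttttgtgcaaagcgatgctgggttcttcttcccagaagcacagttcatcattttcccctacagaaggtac
The Neurod6 window held 2 E-boxes, CAAATG starting 162 bases and CAGTTG starting 132 bases before the transcript start. The Gm3279 window held 0. At least 1 CANNTG, which reads the same on both strands, was present in 72.3% of 32851 RefSeq windows of the same length. The E-box form CAGATG, searched on both strands and a subset of CANNTG, was in 17.2% of windows. It was in the Neurod2 window, 118 bases before the start, and not in the Neurod6, Neurod1 or Gm3279 windows. CTTTGA, the core of the motif bound by the TCF/LEF partners of β-catenin, was searched on both strands. It was in 16% of windows and in 0 of the 4 windows found for these genes. Bhlhe22 had no entry.

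Single libraries stood apart in some genes. A group mean is a sum of whole reads weighted by library, so the reads of each library can be recovered where a single combination gives the printed digits. The letters A, B and C name the libraries by falling scaling factor and are not tied to replicate numbers. In the control group only library A held reads of Eif2s3y, Kdm5d and Ddx3y, which are Y-linked, while several combinations gave their overexpression means. The control group thus mixed libraries with and without Y-linked reads, and the balance of sexes between the groups is not known. Ttr, a choroid plexus gene, had 713 scaled reads in control B against 76.4 in A and 79.4 in C. Control C and overexpression B were low in Lhx9, whose values are given with those of Neurod1.

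Neurod6 (ENSMUSG00000037984; 2 exons) had the lowest ratio of the 5 genes. Its group mean was 1942 scaled reads in control and 1199 in overexpression cortex, a difference of -38.3% or a log2 fold change of -0.70. Across 6786 genes averaging 500 scaled reads or more, no other gene had a lower log2 fold change, and the median absolute log2 fold change of those genes was 0.0561. Among the 11645 genes averaging 100 or more, 3 were at or below the log2 fold change of Neurod6, itself included. In the authors' deposited table Neurod6 had p = 5.04e-05, adjusted to 0.76. That p chose the gene and is given as a description. By the authors' deposited table no adjusted p was under 0.05 (0% of 30152 genes tested), while 0.534% of genes had an unadjusted p under 0.05, 0.328% with a higher and 0.206% with a lower overexpression value. Neurod6 was 1 of the 11 genes, 0.0945% of 11645 averaging 100 or more, whose group means were at least 1.5-fold apart, and 1 of the 7, or 0.0601%, that were lower in overexpression cortex. Bulk cortex cannot tell fewer Neurod6-expressing cells from less Neurod6 RNA per cell, and a count over the whole gene does not tell transcripts of the Cre allele from those of the normal allele.

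**Figure D1:**
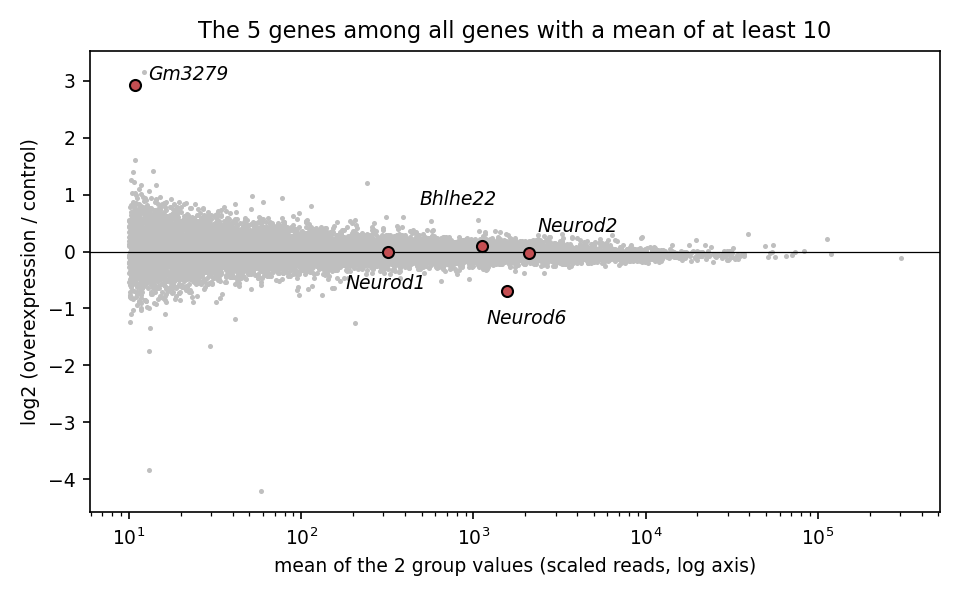
Log2 ratio of the overexpression to the control group value against the mean of the 2 group values in scaled reads (log axis), for genes averaging 10 or more (grey points) and the 5 genes described (red points). Neurod6 lies at -0.70, below the cloud of genes of like level, Gm3279 lies at 2.93 among genes of low level, and the other 3 lie near 0.

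The library values behind the Neurod6 means could not be settled. In all, 12 combinations gave the control mean and 12 gave the overexpression mean, with each library within 2-fold of its group mean. The total over the 3 control libraries lay between 5403 and 5544 reads in all 12, and that over the overexpression libraries between 3737 and 4057 reads in all 12. The counts behind the means were thus large in both groups. The most even combination had 1800, 2162 and 1863 scaled reads in control, and the most even one in overexpression cortex had 1044, 1391 and 1162. Uneven ones with a single control library at 3437 or an overexpression library at 1999 also gave the printed means. In 25 of the 144 pairings of these combinations every overexpression library was below every control library. Whether the groups overlapped is therefore not known.

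Gm3279 (ENSMUSG00000108063; 3 exons), annotated as a long intergenic noncoding RNA, was higher in overexpression cortex. Its role is not described in the sources used here. Its reads were recovered in every library. Control libraries A, B and C held 1, 2 and 4 reads. Overexpression libraries A, B and C held 31, 16 and 17 reads. All 3 overexpression libraries were above all 3 control libraries. This was so in this direction for 4.44% of 9396 recovered genes averaging 10 or more, from which nothing is read here, since Gm3279 was chosen by this contrast and averages 10 only through its overexpression value. In scaled reads the libraries stood at 1.02, 2.16 and 4.41 in control and at 25.3, 15.1 and 17.6 in overexpression cortex. The mean was 2.53 ± 1.73 (SD, n = 3) in control and 19.3 ± 5.31 (SD, n = 3) in overexpression cortex, a log2 fold change of 2.93. The 64 reads against 7 gave a ratio of 7.9 after scaling, with a 95% exact (Clopper-Pearson) interval from 3.62 to 20.4. This interval pools reads over libraries and covers counting error only. It makes no allowance for the choice of Gm3279 by this contrast, so it is not read as a test. With 1 library left out at a time the log2 fold change stayed between 2.55 (without control A) and 3.60 (without control C). In the authors' deposited table Gm3279 had p = 4.49e-06, adjusted to 0.135, the smallest of all genes, and that p chose it. Its exons do not overlap Neurod6 in GENCODE M21. Per kilobase of exon its level stayed far below that of Neurod6, which was 390 times as high in control and 31.5 times as high in overexpression cortex.

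Neurod1 (ENSMUSG00000034701; chromosome 2, 2 exons), a factor of newborn excitatory neurons and of hippocampal granule cells, had like means in the groups. Control libraries A, B and C had 374, 346 and 233 scaled reads, and overexpression libraries A, B and C had 398, 219 and 331. The groups overlapped fully, with 1 low library in each. The mean was 317 ± 74.6 (SD, n = 3) in control and 316 ± 90.5 (SD, n = 3) in overexpression cortex. The log2 fold change was -0.0047 and changed sign when group values were divided by their sums (0.027). Without limits on how far libraries may differ, 2 other combinations also gave the overexpression mean, with a lowest library at 44.8 or at 91.1. In the authors' deposited table p was 0.997.

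**Figure D2:**
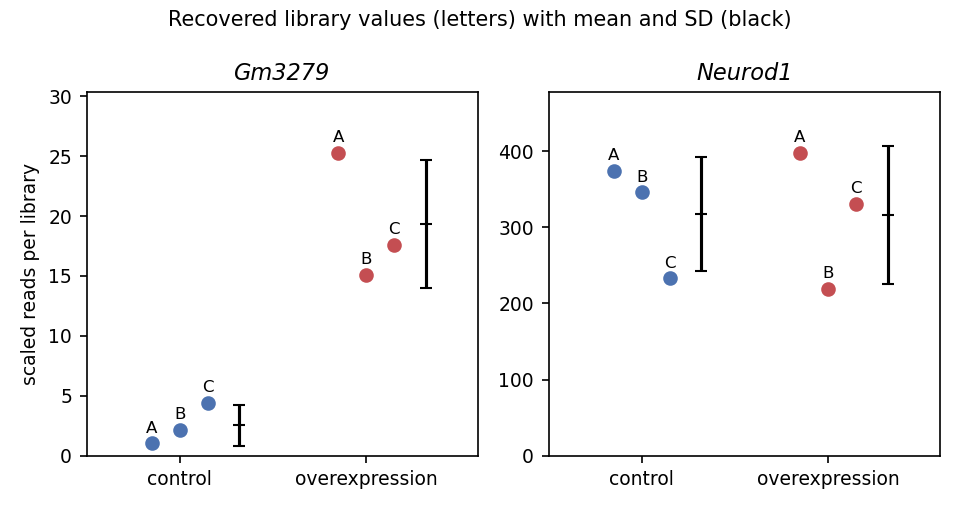
Recovered scaled reads in each library (points, labelled A to C) with the mean and SD of 3 libraries (black), for Gm3279 and Neurod1. All overexpression libraries of Gm3279 (15.1 to 25.3) lie above all control libraries (1.02 to 4.41), while the Neurod1 groups overlap.

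Control C was lowest in Neurod1 and also in Lhx9, Dsp and Prox1 of the hippocampus and thalamus list, a comparison made after the values were seen. Overexpression B, lowest in Neurod1 in 1 of the 3 combinations, was settled as low in that list for Lhx9 alone. Lhx9, a transcription factor gene of that list, had 49.9, 54 and 1.1 scaled reads in control A, B and C, and 108, 11.3 and 86.9 in overexpression A, B and C. Dsp, a desmosome gene and marker of dentate granule cells, had 340, 216 and 9.93 in the control libraries. Its overexpression mean of 205 fitted 2 combinations, 406, 10.4 and 199, or 52.1, 481 and 81.7. Prox1, another granule cell gene, had 1274, 886 and 343 in the control libraries, and 6 combinations gave its overexpression mean of 961. Eomes, a gene of late progenitors of excitatory neurons, had 17.3, 15.1 and 1.1 in the control libraries, against 21.2, 9.41 and 29 in the overexpression libraries. Lhx9 and Eomes were thus each lowest in control C among the control and in overexpression B among the overexpression libraries, and Neurod1 was so with libraries within 2-fold of the group mean. Emx1 and Pax6, recovered from the same list as Eomes, were also lowest in control C (346 and 122). Among the overexpression libraries, however, Emx1 was lowest in C (296) and Pax6 in A (144). The share of recovered genes with the order of Lhx9 was not counted, so the match is only a description. Tcf7l2, a thalamus marker of the same list, did not share this order, with 186, 204 and 211 in the control libraries, against 184, 204 and 191 in the overexpression libraries. The summed level of the 5 genes of that list was 1258 scaled reads in control and 1429 in overexpression cortex, with 4 genes higher and 1 lower, and Gbx2 was listed at 0 in control. Without control C and overexpression B the log2 fold change was 0.02 for Neurod1 and 3.75 for Gm3279. The part of hippocampal tissue in these values was not tested.

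Neurod2 (ENSMUSG00000038255; chromosome 11, 2 exons), which is expressed with Neurod6 in maturing excitatory neurons, averaged 2129 scaled reads in the control and 2092 in the overexpression group. The log2 fold change was -0.025, and it was 0.0063 when group values were divided by their sums, so no direction can be given. The authors' deposited table gave p = 0.835. Bhlhe22 (ENSMUSG00000025128; chromosome 3, 1 exon), which encodes a repressor that acts with PRDM8 in cortical projection neurons, averaged 1085 in the control and 1156 in the overexpression group. This log2 fold change of 0.091 became 0.12 after division by group sums and 0.11 after centring on the median of genes averaging 100 or more. The authors' deposited table gave p = 0.724. Neither gene had library values that could be settled, so the spread between libraries is unknown. With each library within 2-fold of its group mean, 5945 to 6087 control reads in all lay behind the Neurod2 mean. For Bhlhe22 the control total was 3023 to 3072 under the same limit.

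The genes were ordered by level per kilobase of exon, with exon lengths from GENCODE M21, which may not be the annotation behind the table. In control cortex the group values were 903 scaled reads per kilobase for Neurod6, 678 for Neurod2, 325 for Bhlhe22, 116 for Neurod1 and 2.32 for Gm3279. In overexpression cortex they were 558 for Neurod6, 666 for Neurod2, 346 for Bhlhe22, 116 for Neurod1 and 17.7 for Gm3279. On this scale Neurod6 ranked above Neurod2 in control and below it in overexpression cortex, while in scaled reads without length it was below Neurod2 in both, with a ratio of 0.912 in control and 0.573 in overexpression cortex. The ratio of Neurod6 to Neurod2 per kilobase, which no common factor for a group's values can change, was 1.33 in control and 0.838 in overexpression cortex. The same ratio of Neurod1 to Neurod2 was 0.172 and 0.174, and that of Bhlhe22 to Neurod2 was 0.479 and 0.519. Without settled library values for Neurod6, Neurod2 and Bhlhe22, their spread is not known, so their places in this order rest on group means alone. With libraries within 2-fold of the group mean, every Neurod1 library lay above every Gm3279 library. Without that limit, a combination with a Neurod1 library at 44.8 scaled reads also gave the overexpression mean, while Gm3279 reached 25.3. These 2 values are not divided by exon length, which is 2729 bases for Neurod1 and 1092 for Gm3279. Per kilobase that Neurod1 library would lie below the highest Gm3279 library.

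**Figure D3:**
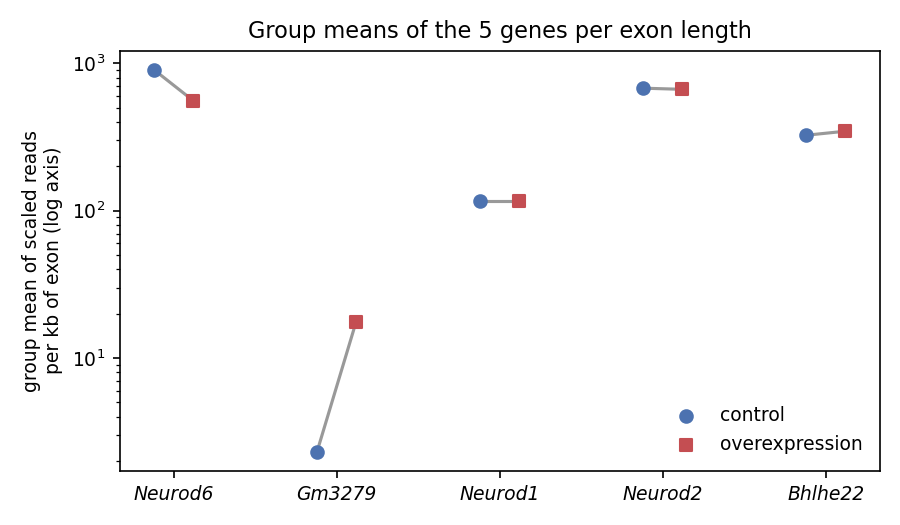
Group value per kilobase of exon (log axis) for each of the 5 genes in control (blue circles) and overexpression cortex (red squares), joined by a line. Neurod6 is at 903 in control and 558 in overexpression cortex and Neurod2 at 678 and 666, so their order differs on this per-length scale, Gm3279 is at 2.32 and 17.7, and Neurod1 is at 116 in both groups.

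Among the other genes around Neurod6, the 4 that averaged 10 or more had log2 fold changes from -0.42 to 0.35. On the far side of Gm3279, Itprid1 had 36.7, 33.5 and 37.5 scaled reads in the control libraries, against 35, 34.8 and 40.4 in the overexpression libraries, so the groups overlapped. Pde1c, a calmodulin-dependent phosphodiesterase gene further along, had 101, 88.6 and 106 in the control libraries, against 79.9, 54.6 and 85.9 in the overexpression libraries. Every overexpression library of Pde1c was below every control library, with a log2 fold change of -0.42 and p = 0.0539 in the authors' deposited table; groups were apart in either direction for 7.14% of recovered genes. Ppp1r17 was at 2.52 in control and 1.75 in overexpression cortex, a log2 fold change of -0.53 at a level of a few reads. On the side of the Neurod6 transcript end, Adcyap1r1, which encodes a receptor for the neuropeptide PACAP, was at 3214 in control and 2835 in overexpression cortex. The authors' deposited table gave it p = 0.14. The noncoding RNA gene 6430584L05Rik had 110, 91.8 and 104 in the control libraries, against 135, 152 and 103 in the overexpression libraries, and the groups overlapped. Ghrhr was at 1.04 in control and 0.585 in overexpression cortex, with at most 2 reads in any library, too few to set its ratio against that of Neurod6, and the miRNA gene Gm44352 had 1 read in all.

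**Figure D4:**
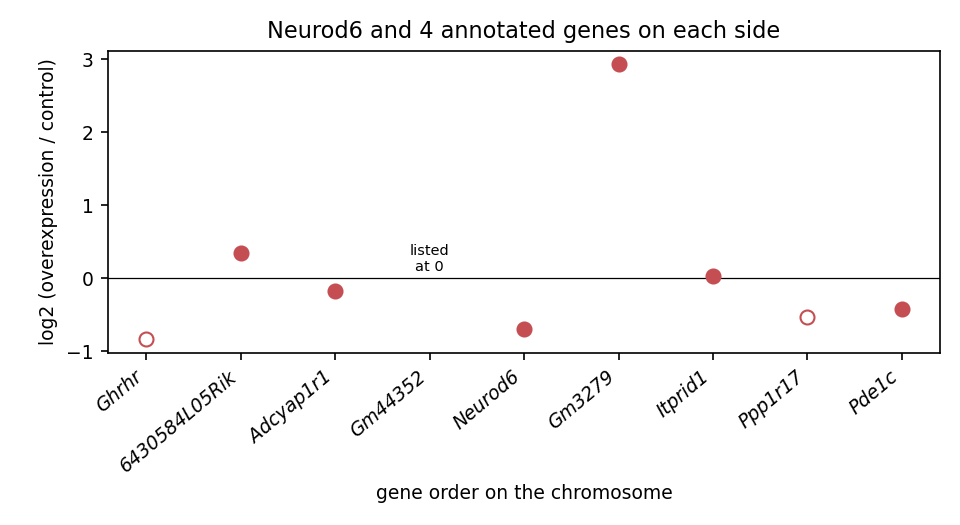
Log2 ratio of the overexpression to the control group value for Neurod6 and the 4 genes annotated on each side, in chromosome order; open circles have a mean under 10 scaled reads and Gm44352 is listed at 0 in overexpression cortex. Gm3279 (2.93) and Neurod6 (-0.70) stand next to each other with opposite signs, and Itprid1 (0.034) lies near 0.

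The partners, inhibitors and relatives of the NEUROD factors gave no call. Of 52 genes in 5 lists, 50 were tested by the authors, and the authors' deposited table gave 0 of these an adjusted and 0 an unadjusted p under 0.05, where 0% and 0.534% of all tested genes did. Limma on recovered libraries called 0 of 18 recovered list genes at an adjusted p of 0.05 and gave 0 with an unadjusted p under 0.05, against 0% and 2.08% of 9396 genes. In all, 22 of the 50 had a higher and 28 a lower overexpression value, against 14796 higher and 15356 lower among all genes tested. Among the 3 E proteins, the dimer partners, Tcf4 had 14248 scaled reads in control and 13138 in overexpression cortex. Tcf12 had 1083 and 1075, and the list median log2 fold change was -0.011. Of 12 inhibitors of bHLH factors, 3 were higher and 9 lower, with a median of -0.028. Among these Id2, which binds E proteins, had 1889 in the control and 1753 in the overexpression group, and Bhlhe40, a repressor, had 1411 and 1275. The median over all genes tested was -0.0086.

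Relatives of the NEUROD genes had a median log2 fold change of 0.013, with 9 of 16 tested genes higher and 7 lower. The highest levels belonged to the oligodendrocyte lineage factors Olig1, with 2275 in the control and 2283 in the overexpression group, and Olig2, with 588 and 608. Neurog3 and Atoh1 were listed at 0 in both groups. Among 18 recovered list genes averaging 10 or more, 2 had every overexpression library above every control library and 0 the reverse, where 4.44% of 9396 recovered genes were apart in the first way and 7.14% in either; so small a count is read as no result about the list. These were Neurog2 and Neurod4, named after their values were seen. Neurog2, the proneural factor upstream of the NEUROD genes in cortical progenitors, had 11.2, 19.4 and 17.6 in the control libraries, against 24.4, 20.7 and 24.8 in the overexpression libraries. Neurod4 had 25.5, 15.1 and 30.9 in the control libraries, against 31, 40.5 and 32.1 in the overexpression libraries, so its groups came close to touching. In the authors' deposited table p was 0.198 for Neurog2 and 0.129 for Neurod4.

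Of 5 genes tied to NEUROD or BHLHE22 function, 3 were higher and 2 lower, with a median log2 fold change of 0.014. Cdh11, a cadherin gene reported to be repressed by the BHLHE22 and PRDM8 pair, had 1989 in the control and 1816 in the overexpression group, and Cntn2, an axonal adhesion gene, had 1895 and 1914. Prdm8 itself had 405 in the control and 451 in the overexpression group. Of 14 other transcription factors of cortical excitatory neurons, 6 were higher and 8 lower, with a median of -0.025. Mef2c had 26028 in the control and 22954 in the overexpression group, and Cux2 had 3902 and 3603.

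**Figure D5:**
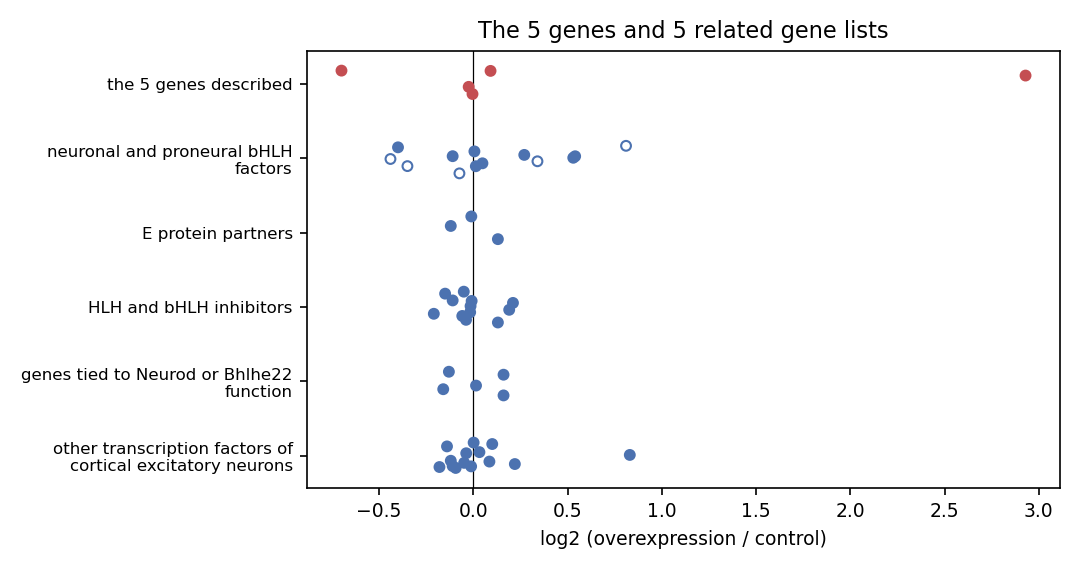
Log2 ratio of the overexpression to the control group value for the 5 genes described (red) and for the genes of 5 related lists (blue); open circles have a mean under 10 scaled reads, and genes listed at 0 in a group are left out. The list genes lie inside the span from Neurod6 (-0.70) to Gm3279 (2.93), and the highest of them is Eomes (0.83).

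Markers of the labelled tissue were present in both groups. The 5 excitatory neuron markers summed to 152312 scaled reads in the control and 145356 in the overexpression group. All 5 were lower in the overexpression group, among them Camk2a with 66769 and 63088 and Nrgn with 37820 and 36893. Slc17a6, a vesicular glutamate transporter gene, had p = 0.0111 in the authors' deposited table, with 584 scaled reads in the control and 448 in the overexpression group. Summed levels in overexpression cortex differed from control by -4.57% for these markers, by -9% for 7 interneuron markers, by -1.55% for 5 astrocyte markers, by 7.22% for 6 oligodendrocyte lineage markers, by 2.92% for 4 microglia markers and by 3.58% for 3 endothelial markers, against -38.3% for Neurod6. Lower values were also found for 6 of the 7 interneuron markers. They were found for 2 of 5 astrocyte, 2 of 6 oligodendrocyte lineage, 1 of 4 microglia and 1 of 3 endothelial markers. Over all genes tested, 15356 of 30152 were lower. The part of cell composition in the Neurod6 value was not tested. Ctnnb1, the targeted gene, had 7574 in the control and 6391 in the overexpression group (p = 0.0304 in the authors' deposited table), a gene-level value that does not check the loss of exon 3.

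The genes most like Neurod6 in this comparison were found by the smallest gap in log2 fold change over the 2 group values, among genes averaging 500 scaled reads or more. They were Fibcd1 (-0.52), Egr3 (-0.48), Rtl8a (-0.40), Tenm3 (-0.38) and Slc17a6 (-0.38), so the nearest was 0.176 away from Neurod6. Fibcd1 had 767 in the control and 535 in the overexpression group, with p = 0.37 by the authors' deposited table. Egr3, an immediate early gene, had 1095 in the control and 784 in the overexpression group.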

How the data were processed

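RNA-seq was made from total RNA of 6 cortex samples, and the submitters' processing notes list the aligners TopHat2 2.0.9 and Bowtie2 2.0.6. Which build, annotation, counter, strand setting and test the authors used is not given in the sources used here. In the deposited table each gene has 1 signal value per group, read from the values as the mean over libraries of scaled read counts. Per the file headers the table also holds a p-value, an adjusted p-value and a fold change. Deposited and recomputed log2 fold changes differed by at most 4.99e-05. Symbols were found for 98.8% of 47069 Ensembl IDs. Group values carry no SD.

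The members and gene lists were chosen with earlier results of these data known. No test was made of the members. Reads per library were recovered from the 10 significant digits of each group mean, which gave 1 combination for 99.53% of 23575 control values up to 1000 and 99.72% of 20846 overexpression values up to 400. Above 150, libraries were searched within 2-fold of the group value. The scaling factors came to 0.982, 0.926 and 0.907 for the control libraries and to 1.23, 1.06 and 0.966 for the others, and total depth per library is unknown. On simulated group means, a single combination was found for 100% of control and 99.43% of overexpression values, and 100% of these were the simulated reads. The simulated libraries differed by much less than the 2-fold search window. The simulation therefore does not check genes whose libraries differ more than that. Limma 3.58.1 in R 4.3.3 was fitted to 9396 recovered genes for the background and the lists. It used log2 of the value plus 1 and a trend. A run on simulated data had a fixed spread between libraries and increases only. That run does not give the power for the list genes, so the lack of calls there does not show that they were unchanged. The labels do not say that replicates came from separate animals, so p-values measure the spread between these samples only. Named genes are the members, Ctnnb1, the 2 list genes of highest mean and those with p under 0.05, 4 neighbours on each side of Neurod6 in GENCODE M21 order, and the 5 genes with a mean of at least 500 nearest to Neurod6 in fold change; others were named after their values were seen. Promoters matched RefSeq for 4 of 5 members.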

Additional observations from a re-analysis of the deposited data

How the results depend on the processing

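Neurod6 kept its direction under each alternative that could be run, with log2 fold changes from -0.70 to -0.66, and Bhlhe22 stayed between 0.09 and 0.12. These alternatives were pseudocounts of 1 and 10, division by group sums and centring on the median of genes averaging 100 or more. A pseudocount cannot change a direction, and the group sums differed by only -2.18%. None could thus reverse the Neurod6 value, so its kept direction is no support. No library could be left out for Neurod6, Neurod2 or Bhlhe22, whose library values were not settled. Gm3279 was at 2.52 with a pseudocount of 1 and 1.23 with a pseudocount of 10, which shrinks a gene of so few reads by construction. It ranged from 2.55 to 3.60 with 1 library left out, and was 3.75 without control C and overexpression B, an alternative chosen after seeing the data. Neurod1 ranged from -0.21 to 0.20 with 1 library left out, so it has no stable sign. Adjusting the deposited p-values over the 17095 genes with a mean of at least 10 gave Gm3279 0.0768 and Neurod6 0.431, but Gm3279 averages 10 only through its overexpression value, so its smaller p is no support. Of 50 list genes, 22 were higher, but 27 after centring on the median of genes averaging 100 or more (-0.017), a shift that also moved the count over all 30152 genes tested from 14796 to 15925. With libraries searched within 4-fold, also chosen after seeing the data, 3 in place of 4 of the 10 member means had 1 combination. No paired analysis was possible because the deposited columns carry no replicate numbers. Control reads of Gm3279, 7 in all, limit the precision of its ratio.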
